A study of Daphnia magna with 20 samples.

Results

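The 200 gene models described here had their highest stage value in adult males among 7 life stages of the water flea *Daphnia magna*. They were chosen from 40786 gene models with at least 3 probes on a custom Agilent array, out of 41316 gene models with any probe. For each gene model, a value was taken for each of 7 stages from the deposited log2 values (the median over its probes of the stage's mean), the 7 values were sorted, and the widest gap between neighbours was found. In 2416 gene models this gap left males alone on the high side. Of these, 257 also had at least 2 probes marked by the scanner software as well above background in both male arrays, and the 200 with the widest gaps were kept and ranked by gap. The level of males against the other stages is therefore what the rule used, and it is given as a description without a test. The files and the reference table do not pair these gene models with names (0 matched). The study describes an annotation of the array design, which was not used here, so no function is given to any of them. The 2 with the widest gap are printed by identifier and the others are called by their rank.

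*Daphnia* reproduces by cyclic parthenogenesis. Under good conditions mothers produce genetically identical daughters, and sons arise from the same kind of eggs under environmental cues or on exposure to juvenoid hormones, so that sex is set by the environment and not by sex chromosomes. The gene doublesex is known in this species to drive the development of male traits, among them longer antennules and testes. Adult males and females of 1 clone thus share a genome.

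All samples were whole bodies of 1 laboratory clone, clone F. Adult males (M, 2 arrays, aged 16 days in the labels and slightly younger in the methods) came from mothers exposed to methyl farnesoate, a crustacean juvenoid hormone, so that sex and that maternal exposure cannot be told apart here. The other stages had 3 arrays each and are labelled female. They were early embryos (E1, under 12 h in the labels and younger in the methods), late embryos (E3, 60 h), juveniles (J, 4 days, before ovaries are visible) and reproducing females sampled just after a moult (F1, 15 days), midway to the next (F2, 16 days) and shortly before it (F3, 18 days). Embryos had been flushed from the brood pouch of the females. The study calls its replicates biological, whereas the labels name no separate cultures and give both male samples the same source name. The p-values measure the spread between these samples, part of which may be technical. In whole bodies, more cells of a type and more RNA per cell cannot be told apart.

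The 20 arrays lay on 5 slides. The first male array shared slide 1 with 1 array each of E1, E3 and F1, and the second shared slide 2 with 1 E1 and 2 J arrays. No F2 or F3 array shared a slide with a male. On slide 1, between 17.1 and 25.0% of probes were well above background, against 46.6 to 80.5% on the other slides, and the first male array was at 17.1%, against 52.7% in the second. Levels below are log2 of the quantile-normalized signal (the median over a gene model's probes in an array), on which 1 unit is 2-fold.

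The gap between males and the next stage ranged from 12.16 log2 units (4588-fold) at rank 1 to 0.69 (1.61-fold) at rank 200, with a median of 2.01 (4.03-fold). It exceeded 8 units in 7 gene models, 4 units in 63, 2 units in 100 and 1 unit in 162. There was no break at the threshold. The gaps of ranks 198, 199 and 200 were 0.70, 0.69 and 0.69, and those of ranks 201, 202 and 203, just outside, were 0.68, 0.67 and 0.67.

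**Figure D1:**
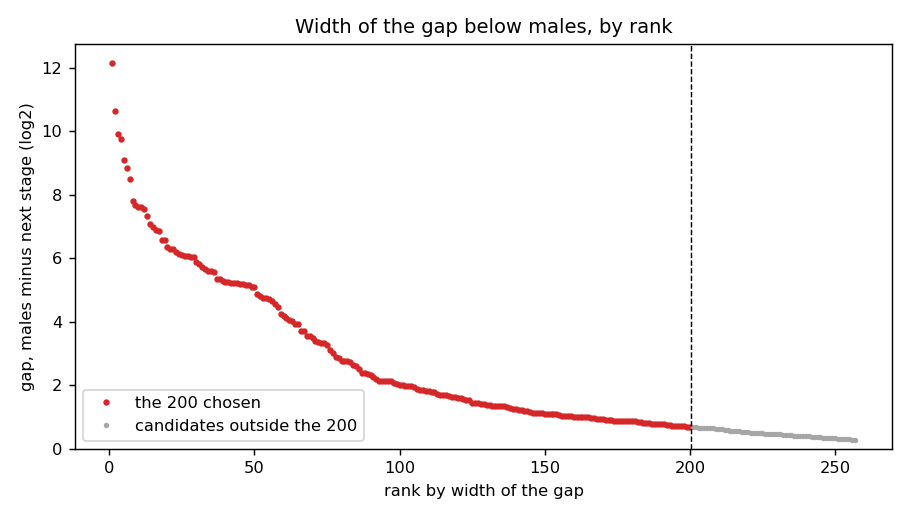
Gap between males and the next highest stage (y axis, log2 units) for each candidate by rank (x axis), with the 200 chosen gene models in red, the 57 candidates outside in grey and a dashed line between them. The gap falls steeply over the leading ranks and continues without a step past rank 200.

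The gene model with the widest gap, velh8ptr216k23Loc205t1, had levels of 16.17 and 15.80 in the male arrays, against a lowest level of 2.78, a median of 3.17 and a highest of 4.12 in the 18 arrays of the other stages. Outside males its level lay below the background set by random probes on every array (5.39 to 7.47), so the size of its gap rests on the value given to arrays with no signal above background. Of its 4 probes, 3 had levels between 15.64 and 16.41 in the males. The remaining probe was at 4.90 and 3.13 in the males, against a highest level of 5.75 elsewhere, so 1 probe of this gene model did not show the pattern. The second, velb9ptf230k27Loc158t2, had 15.21 and 14.55 in males and 2.66, 3.49 and 4.62 as the lowest, the median and the highest of the other 18 arrays. Each of its 4 probes was highest in males, by 6.88 to 12.47 units over the next stage, although its level too was below background on every array outside males.

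The pattern of these leading gene models continued through the following ranks. The third had 15.20 and 14.72 in males, against a highest level of 4.90 elsewhere. The seventh had 14.49 and 13.76 in males, and its highest other array, a late embryo, was at 6.60. In the first 9 ranks, no other stage was above background in all of its arrays. Rank 10 had 14.29 and 13.14 in males and was above background in every array of 1 other stage.

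At the middle of the list, the levels of other stages were higher and more varied. Rank 100 had 9.91 and 9.65 in males, 7.65, 7.76 and 7.86 in E3, and between 3.36 and 7.40 in the other 15 arrays. The male and E3 arrays did not overlap, with means of 9.78 ± 0.19 (SD, n = 2) in males and 7.75 ± 0.10 (SD, n = 3) in E3. At the end of the list the separation depended on how probes were combined. Rank 200 had 7.06 and 7.28 in males, against 4.63, 7.03 and 7.57 as the lowest, the median and the highest of the other arrays. Its males were not the highest stage on this scale, with a mean of 7.17, against 7.33 in E3. Of its 3 probes, 2 were highest in males. By contrast, the first gene model outside, rank 201, had 11.99 and 12.18 in males, against a highest level of 11.38 in the other arrays, and its groups did not overlap.

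**Figure D2:**
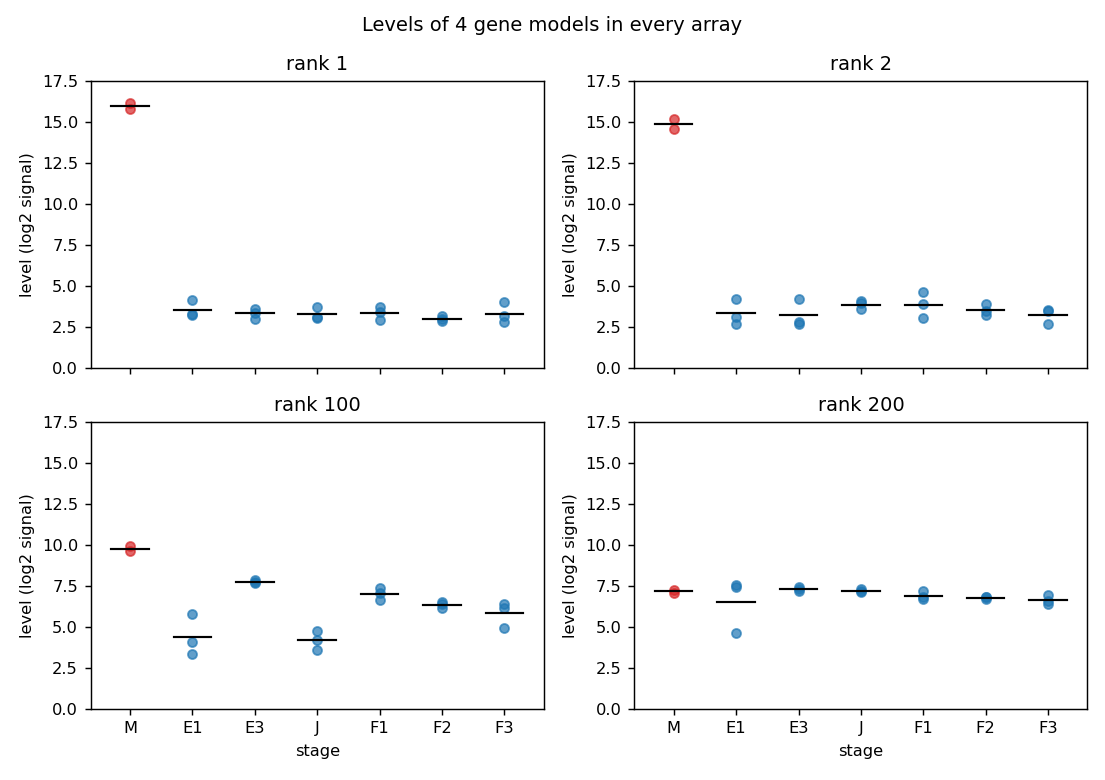
Level (y axis, log2 signal) in every array of each stage (x axis, males in red at the left) for ranks 1, 2, 100 and 200. Points are arrays and black lines are stage means. Males lie far above the other stages at ranks 1 and 2, 2.02 units above E3 at rank 100, and within the range of other stages at rank 200.

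Across the 200 gene models the male mean level ranged from 6.29 to 15.99, with a median of 9.75. In the highest of the other stages the mean level ranged from 3.34 to 14.05, with a median of 6.96. Both male arrays lay above all 18 other arrays in 178 gene models, as they did in 2.18% of all gene models with at least 3 probes. The other 22 all ranked 91 or lower, and in 14 of them a lone array of another stage exceeded the lower male. The second male array was the lower one in 17 of the 22.

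**Figure D3:**
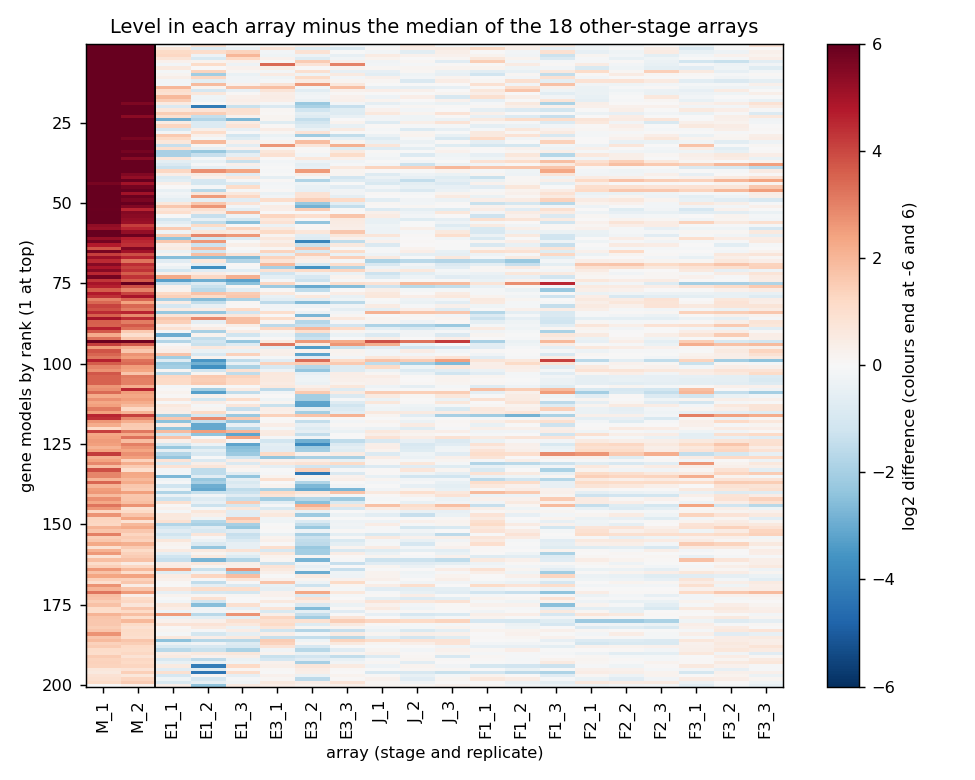
Level of each of the 200 gene models (rows, rank 1 at the top) in each array (columns, males at the left of the black line), as the log2 difference from the median of the 18 arrays of the other stages. The male columns are red in nearly all rows, paler towards the bottom, while blue cells in E1_2 and E3_2, both of slide 1, mark levels below those of other arrays.

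The rule used the median over a gene model's probes, so that agreement among them was in part set by the choice. The following counts are a description. Of 793 probes, 734 (92.6%) had their highest stage mean in males, and 676 did so by at least 1.5-fold over the next stage. Every probe was highest in males in 152 gene models, 1 probe was not in 37, and at least 2 were not in 11. The widest gaps had the most uniform probes, with 58 of the 63 gene models with a gap over 4 units having every probe highest in males, against 21 of the 38 with a gap under 1. No probe of these gene models was saturated in both male arrays.

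The 2 male arrays differed from each other in a common direction. The first was above the second in 166 gene models and below it in 34, with a median difference of 0.61 log2 units, against 0.10 over all gene models with at least 3 probes. They were within 1 unit in 148 gene models and over 2 units apart in 6. The largest differences ran in opposite directions. Rank 133 had 8.59 and 5.71 in males, and rank 75 had 10.55 and 13.11. At rank 133 a late embryo, at 6.16, exceeded the second male, whereas at rank 75 both males lay above the highest other array, an F1 female at 10.09.

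Within slide 1, the male array was above the other 3 arrays in 199 of the 200 gene models, against 24.2% of all gene models with at least 3 probes, and its difference from the highest of them had a median of 2.79 (−0.16 to 12.20). Within slide 2, the male array was above the other 3 in 194, against 24.9%, with a median difference of 2.17 (−0.85 to 12.60). These arrays were among those the rule used. The number of candidates depended on the first male array, with 1502 when it was left out of the rule and 316 when the second was, against 257 with both. Without the first male array, 106 of the 200 were chosen again, and the array left out was above its 3 slide neighbours in 166 (83%) of the 200 chosen that way. Of the 94 that were not among the original 200, it was above them in 60 and well above background in 5. Without the second male array, 169 were chosen again, and the array left out was above its neighbours in 188 (94%). Of the 31 that were not among the original 200, it was above them in 24 and well above background in 31. The neighbour arrays were still used by the rule in both cases. All 63 gene models with a gap over 4 units were chosen both without the first and without the second male array. Of the 38 with a gap under 1 unit, 1 was.

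**Figure D4:**
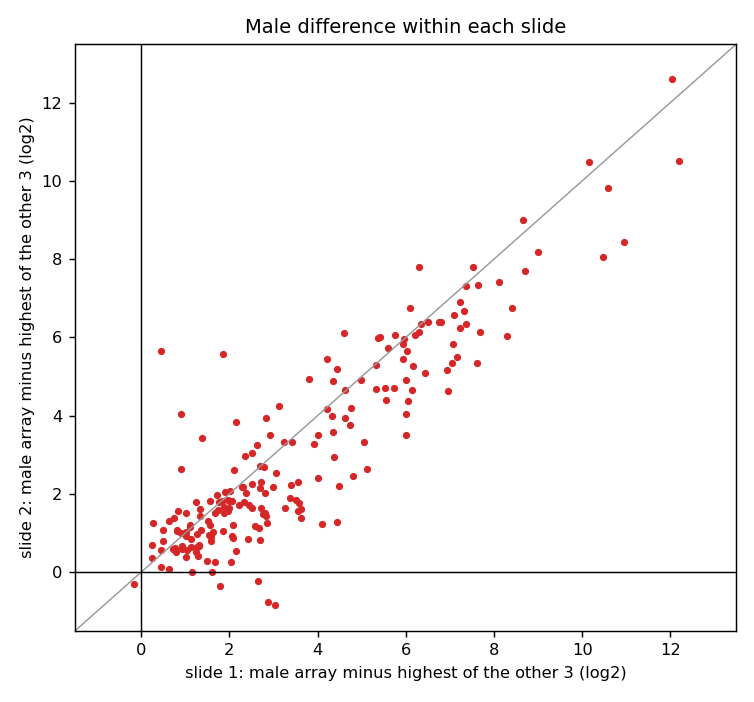
Difference between the male array and the highest of the other 3 arrays on slide 1 (x axis) and on slide 2 (y axis), in log2 units, with a point for each of the 200 gene models and a grey line of equality. In 194 gene models the male array was above its neighbours on both slides, and most points lie below the line, where the difference is larger on slide 1.

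Gene models differed in how much signal they gave outside males. A gene model was taken as above background in a stage when its level exceeded the percentile 95 of the array's random probes in every array of that stage. By this measure 194 of the 200 were above background in males, 68 were above it in no other stage, 103 in 1 to 5 other stages and 29 in all 6. Of the 68, 46 had a gap over 4 units. The 29 were among the narrower gaps, with none over 4 units and 18 under 1. Detection varied by stage, with 23% of the 200 above background in E1 and 22% in E3, where the shares of all gene models with at least 3 probes were 20.8 and 23.9%. In J it was 53.5%, against 40.7% of all. In F1, F2 and F3 it was 32, 51.5 and 57.5%, against 26.2, 36.0 and 36.2% of all. The stages with the lowest shares, E1, E3 and F1, are those with an array on slide 1, where the background level was 6.86 to 7.47, against 5.33 to 6.27 on the other slides. Its part in these shares was not tested. The scanner's own mark, which is also carried by dimmer signals, was most frequent in J, F2 and F3. At least 2 probes were marked in every array of the stage in 72% of the 200 in J, 83.5% in F2 and 74.5% in F3, against 52.2, 63.7 and 50.7% of all, and no gene model lacked a marked probe on every array outside males. The rule asked for this mark on at least 2 probes in both male arrays, which 19.0% of all gene models had. The shares of the 200 and of all are therefore not read as a difference.

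Among the gene models present in every stage, rank 78 had the widest gap. Its levels were 13.72 and 13.01 in males, against 10.16, 10.66 and 10.47 in E1, which was the next stage, and 8.51 to 9.60 in the other 15 arrays. It was above background in every array of every stage, unlike ranks 1 and 2. The stage next to males was most often E1 or F3 (56 gene models each), followed by E3 (30), J (20), F1 (19) and F2 (19). In the 132 gene models above background in another stage it was F3 in 46 and E1 in 29. In the 68 others it was E1 in 27 and F3 in 10, an order among values below background.

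The stages other than males were then compared with each other, which addresses how these gene models vary outside the stage that chose them. The tests were made with limma in 1 fit of all 20 arrays, with Benjamini-Hochberg adjustment over 18654 gene models above background in at least 1 stage, of which 198 were among the 200. The rule kept every gap among the other stages narrower than the gap to males, and many of these gene models passed the filter only through males, so the shares called are read beside those of all gene models tested and not as a difference between them. The 6 other stages differed in 118 of the 198 (59.6%), against 82.7% of all tested. In 66 of the 198 no other stage was above background, and 27 of these differed among the 6 stages, whereas 91 of the other 132 did. Among the 118, the highest of the 6 stages was F3 in 39 (33.1%, against 19.5% of all gene models called) and E1 in 31 (26.3%, against 35.4%). The lowest was E1 in 40 (33.9%, against 32.6%). These shares too are not read as a difference.

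**Figure D5:**
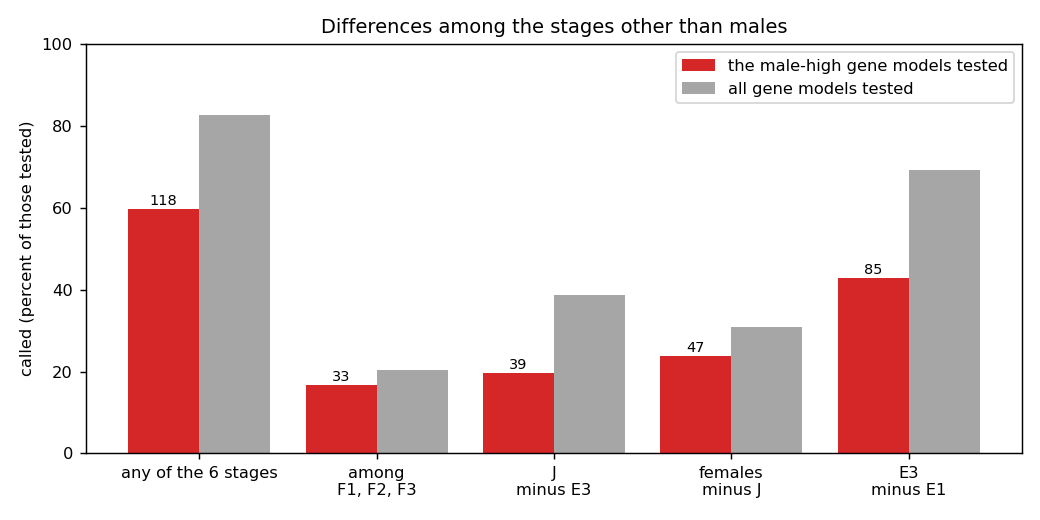
Percent of gene models called in each comparison among stages other than males (y axis), for the 198 male-high gene models tested (red, with the number called above the bar) and for all 18654 tested (grey). The red bar is the lower of the pair in each comparison. The rule kept gaps among these stages narrower than the gap to males, and many of the 198 passed the filter only through males. The bars are therefore not read as a difference.

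Late embryos and early embryos differed in 85 of the 198 gene models at an adjusted p under 0.05 and at least 1.5-fold. E3 was higher than E1 in 44 (22.2%, against 31.1% of all tested) and lower in 41 (20.7%, against 38.0%). The split depended on the scaling, with 30 higher and 58 lower after a shift to each array's 75th percentile. The median log2 difference was −0.06, against −0.27 over all tested. Many of these levels lay below background in 1 of the stages compared, where the size of a difference is not measured. For gene models above background in every array compared, here and below, no share over all gene models was taken. Such counts are a description. In 30 of the 198, every array of E3 and of E1 was above background, and 7 of these were higher and 10 lower. The largest decrease among them was at rank 185, with 8.47, 8.42 and 8.23 in E3 and 10.505, 10.25 and 10.48 in E1, a difference of −2.04 (SE 0.21, limma adjusted p = 4.3e-07). The E3 and E1 arrays did not overlap, and the males were at 11.53 and 10.90. The largest increase was at rank 131, with 7.99, 8.18 and 8.49 in E3 and 6.40, 7.75 and 6.46 in E1, a difference of 1.35 (SE 0.50, limma adjusted p = 0.023). Here too the arrays did not overlap. These examples and those below were picked after their values were seen, as the largest called changes among gene models above background in every array compared.

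Juveniles and late embryos differed in 39 of the 198. J was higher than E3 in 21 (10.6%, against 23.9% of all tested) and lower in 18 (9.09%, against 14.9%), with a median difference of 0.06, against 0.24. After the 75th percentile shift, 12 were higher and 24 lower. Of the 132 gene models above background in a stage other than males, 29 differed, beside 39% of all tested with that filter. J was higher in 21 and lower in 8 of these 29. The 66 outside the 132 had passed the filter through males alone. In 41 gene models every array of J and of E3 was above background. J was higher in 3 and lower in 3 of these, with no share of all taken. The largest decrease among them was at rank 173, with 6.90, 6.66 and 6.83 in J and 7.54, 8.36 and 7.497 in E3, a difference of −1.004 (SE 0.29, limma adjusted p = 0.013). The largest increase was at rank 191, with 9.61, 10.55 and 9.49 in J and 9.09, 9.31 and 8.98 in E3, a difference of 0.75 (SE 0.25, limma adjusted p = 0.028). In both the J and E3 arrays did not overlap. Without the third J array 25 were called (beside 31.8% of all tested). The count was 22 with normexp background correction (beside 35.1%) and 61 without the arrays of slide 1 (beside 47.9%), with 24 higher and 37 lower.

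Adult females, as the mean of F1, F2 and F3, differed from juveniles in 47 of the 198. They were higher in 32 (16.2%, against 15.3% of all tested) and lower in 15 (7.58%, against 15.6%), with a median difference of 0.11, against −0.06. The largest increase was at rank 88, which was above background in every stage. It had 10.07 to 12.24 in the 9 female arrays, with a median of 11.38, and 8.81, 8.83 and 8.45 in J, a difference of 2.46 (SE 0.19, limma adjusted p = 1.4e-06). Its males, at 14.19 and 14.34, were highest by the rule. J was the lowest of the stages, with means of 9.31 in E3 and 10.95 in E1. In 57 gene models every array of J and of the females was above background. The females were higher in 11 and lower in 9 of these, with no share of all taken. The largest decrease among them was at rank 180, with 7.07 to 9.02 in the female arrays and 10.54, 10.49 and 10.63 in J, a difference of −2.46 (SE 0.18, limma adjusted p = 1.0e-06). At this gene model the males, at 10.90 and 11.23, were highest by the rule. The count fell to 25 without the first J array (beside 23.5% of all tested), to 22 without the third (beside 21.1%) and to 20 with the slide as a block (beside 22.4%). It was 26 with normexp (beside 26.7%) and 74 without the arrays of slide 1 (beside 40.5%).

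The females differed among F1, F2 and F3 in 33 of the 198 (16.7%), against 20.4% of all tested. Of the 33, F3 was highest in 21 (63.6%, against 27.4% of all gene models called) and F1 in 7 (21.2%, against 41.5%), and F1 was lowest in 18 (54.5%, against 39.2%). The smallest p-value was at rank 116, with 4.86, 4.14 and 5.09 in F1, 7.33, 7.32 and 6.81 in F2, and 10.03, 9.45 and 9.21 in F3 (limma adjusted p = 6.6e-06). Its F1 arrays were below background and its F2 and F3 arrays above it, and the males were at 11.55 and 11.14. Of 57 gene models above background in every female array, 8 differed, with no share of all taken. The smallest p-values among these were at ranks 180 and 141, both lowest in the middle of the cycle. Rank 180 had 8.27, 8.21 and 8.52 in F1, 7.07, 7.09 and 7.38 in F2, and 9.02, 8.51 and 8.74 in F3 (limma adjusted p = 0.00021). Rank 141 had 9.15, 9.12 and 9.59 in F1, 8.18, 8.28 and 8.33 in F2, and 9.78, 10.23 and 9.87 in F3 (limma adjusted p = 0.00037). The F2 arrays lay below all F1 and F3 arrays in both. Without the arrays of slide 1, 68 gene models differed among the females (beside 39.4% of all tested), and 21 did when probes were tested singly (beside 11.5%).

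The identifiers of the array carry an assembly prefix and what reads as a locus and a transcript number, although the files do not state this. Read that way, the 200 gene models came from 195 loci, of which 5 held 2 each. Their gaps were 5.23 and 5.21 at ranks 42 and 45, 4.88 and 4.07 at ranks 51 and 62, and 3.56 and 3.56 at ranks 68 and 69. They were 2.60 and 2.32 at ranks 85 and 90, and 2.14 and 1.99 at ranks 95 and 102. The next stage differed within the pairs at ranks 68 and 69 and at ranks 85 and 90. Pairs of this kind may share sequence and are not independent. Other gene models may overlap too, although their identifiers differ. Ranks 104, 105 and 106, on separate loci, had male means of 12.76, 12.73 and 12.76 and E1 means of 10.79, 10.74 and 10.77. The study reports that some probes match several transcripts, and their part here was not tested. The 4 assembly prefixes had shares of 39.5, 23.5, 20.5 and 16.5% among the 200, against 34.4, 26.3, 21.3 and 18.1% of all gene models. Of 79 other gene models on the same loci, 21.5% were highest in males, against 16.5% of all, and 5.06% had males alone above the widest gap, against 5.92% of all. Only 27 of the 79 were on loci of up to 20 gene models. Of these 27, 18.5% were highest in males and 3.70% had males alone above the widest gap. The rule was also applied to the random probes of the array, which match no gene by design, each taken singly. Without regard to brightness, 14.2% of 2532 random probes had males alone above the widest gap. The 5.92% of gene models is not a like measure, because their values are medians over at least 3 probes. At the level of single probes, 1 random probe (0.0395%) met the male pattern and was well above background in both male arrays, with a gap at least that of rank 200, against 813 of 162718 gene probes (0.500%). Of the 359 random probes with males alone above the gap, the brightness mark left 1. This contrast therefore rests on that mark as well as on the pattern.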

How the data were processed

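RNA from 7 life stages was hybridised to 20 single-colour arrays. The authors deposited scanner output, an intensity per spot already corrected for background by Feature Extraction (10.5.1.1 in the headers), with the other flags that Feature Extraction sets for each spot, used as given. A matrix deposited beside it held log2 values, which matched quantile-normalized scanner values minus each probe's median (r at least 0.9997). The rule used that matrix. It was read so that a probe counted as well above background if any of its spots was marked, a mark that some signals below the random-probe background also carried. The members, lists and tests were chosen with earlier results of these data known.

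For tests, control and outlier spots were left out, and log2 processed signals were quantile normalized. A gene model's value in an array was the median over its probes. Gene models above the percentile 95 of the random probes in every array of at least 1 stage (18654) entered 1 limma fit of 7 groups (limma 3.58.1, R 4.3.3), called at an adjusted p under 0.05 and, for contrasts, at least 1.5-fold. The methods' t-test was an alternative. The procedure was tested on simulated data. Tables and figures used Python 3.11.15, pandas 2.3.3, numpy 2.4.6 and matplotlib 3.10.9. The number of arrays limits the precision.

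Named gene models were the 2 with the widest gap, and ranks 200 and 201 were added. Lists of functions and of sex markers could not be applied, because no table used here names the gene models, so the labelled sex was not checked. Sequences, functional annotation and qPCR were not analysed here. Alternatives changed the background correction (normexp, offset 50), the scaling (a shift to each array's 75th percentile), the origin of the values, the filter, the combination of probes, the slide and replicate number as blocks, and which arrays were included, leaving out each one.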

Additional observations from a re-analysis of the deposited data

Results flagged for a closer look

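Gene models with fewer than 3 probes had no part in the rule. Among 530 such gene models, 1 had the male pattern, with males alone above the widest gap and well above background, and a gap of 0.75 log2 units. That signal lies in data that none of the comparisons used.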

How the results depend on the processing

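Of the 200 gene models, 162 to 193 were chosen again when the background correction, the normalization, the source of values, the combination of probes or the number of probes was changed. All 63 with a gap over 4 units, and 5 of the 38 with a gap under 1, were kept under 4 such changes together. Leaving out single arrays left 106 to 198, with 106 when the first male array was left out, and leaving out slide 1 left 99. The cause was not tested.

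Counts called of these gene models ranged over single arrays left out from 110 to 128 among the 6 stages, 22 to 44 among F1, F2 and F3, 25 to 47 for J minus E3, 22 to 54 for females minus J and 76 to 100 for E3 minus E1. In the same order, the shares of all tested ran from 79.4 to 84.8%, 15.8 to 24.5%, 31.6 to 42%, 21.1 to 33.9% and 65.2 to 72.3%. With normexp, J minus E3 gave 22 and females minus J 26. With the slide as a block, females minus J gave 20. Without slide 1, an alternative chosen after seeing the data, the counts were 68 among F1, F2 and F3, 61 for J minus E3 and 74 for females minus J. Tested per probe, 21 differed among F1, F2 and F3. At an unadjusted p under 0.001, the methods' t-test gave 3 for J minus E3 (beside 10.9% of all tested), 13 for females minus J (beside 15.2%) and 7 for E3 minus E1 (beside 17.2%). After Benjamini-Hochberg adjustment it gave 23 for J minus E3 (beside 31.4%) and 38 for E3 minus E1 (beside 47.3%). The cause of these changes was not tested. With the 75th percentile shift, J minus E3 had 12 higher and 24 lower (21 and 18 with quantile normalization) and E3 minus E1 had 30 higher and 58 lower (44 and 41). With the filter applied to the 6 other stages alone, also chosen after seeing the data, 132 were tested. Of these, 91 differed among the 6 stages (beside 83.1% of all tested), 26 among F1, F2 and F3 (beside 20.5%), 29 for J minus E3 (beside 39%), 40 for females minus J (beside 31.1%) and 67 for E3 minus E1 (beside 69.3%).

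With the replicate block the counts were 117 among the 6 stages (beside 81.4% of all tested), 29 among F1, F2 and F3 (beside 19.2%), 38 for J minus E3 (beside 38%), 46 for females minus J (beside 30.3%) and 86 for E3 minus E1 (beside 68.4%). The deviations of 57 pairs of arrays with the same number had correlations of −0.32 to 0.29, with a mean of −0.023. In 114 pairs with another number the mean was 0.014. With so few arrays per stage, these values cannot decide whether the numbers pair the samples.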
